A study of Mus musculus with 60 samples.

Results

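The genes described here are the ligands, receptors and feedback targets of the Wnt pathway. They were chosen by symbol, by a rule that uses no measured value but was set with earlier results of these data known. It takes every mouse gene named Wnt or Fzd with a number, the co-receptors Lrp5 and Lrp6, and the receptors Ror1, Ror2 and Ryk. It also takes the target genes Axin2, Lef1, Nkd1, Nkd2, Rnf43, Znrf3 and Notum. This gave 41 of the 18193 genes with a named probe set on the arrays, of which 19 are ligands, 15 are receptors and 7 are targets. Tcf7, which the same choice names, was not analysed here.

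Gene expression was measured on Affymetrix arrays in the developing mandible (lower jaw) and maxilla (upper jaw) of embryos of the inbred mouse strain C57Bl/6. The labels name no mutation and no treatment, so all groups share that background. The groups are the distal mandible, the proximal mandible, the distal maxilla and the proximal maxilla, each at 5 ages a day apart, from embryonic day E10.5 to E14.5, which makes 20 groups of 3 arrays and 60 arrays in all. The study belongs to the FaceBase consortium on craniofacial development and set out to profile both jaws as they form. The sample titles give 4 batches: 12 arrays of mandible at E13.5 and E14.5 in the first, 24 arrays of mandible at E12.5 and of maxilla from E12.5 to E14.5 in the second, 18 arrays of mandible at E10.5 and of either jaw at E11.5 in the third, and 6 arrays of maxilla at E10.5 in the fourth. The distal and proximal pieces of a jaw always share a batch, the jaws share a batch only at E11.5 and E12.5, and 4 steps between neighbouring ages lie within a batch. Comparisons were kept to these.

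Values are log2 signals, on which a difference of 1 is a 2-fold difference, and each gene is represented by a single probe set. A gene is called higher or lower, or is said to have risen or fallen, only where its adjusted p in the limma fit over all genes was under 0.05. The median array value lay between 6.06 and 6.31 over all probe sets. No background signal was measured: a group mean of 4.78 or less, the highest value that any array has at its 25th percentile, does not show that the gene was present, and a difference against such a group is a lower bound at best. Whether the 3 arrays of a group came from separate embryos is not in the labels, so p-values measure the spread between these arrays, which may be technical. In whole pieces of tissue, fewer cells of a type and less RNA per cell cannot be told apart.

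The pieces differed in their mix of cells. Markers of the surface epithelium were higher distally for 10 of 12 genes in the mandible and 12 of 12 in the maxilla, with median log2 differences of 0.66 and 0.90, and their summed linear signal ran from 8.43e+03 to 3.62e+04 in distal and from 7.27e+03 to 1.86e+04 in proximal mandible arrays. In the maxilla that sum ran from 7.45e+03 to 2.18e+04 distally and from 4.01e+03 to 1.01e+04 proximally, and no epithelial marker was at or under 4.78 in any group. Neuron markers were lower distally for 7 of 9 measured genes in the mandible and for 9 of 9 in the maxilla, where their summed signal was 4.15e+04 to 7.13e+04 in proximal and 2.55e+03 to 1.34e+04 in distal arrays. Skeletal muscle markers were lower distally for 10 of 10 and 9 of 10 genes, cartilage markers for 7 of 7 and 5 of 7, with median log2 differences of -1.02 and -0.66, and Schwann cell and neural crest glia markers for 4 of 4 in each jaw, with medians of -0.44 and -1.23. Facial mesenchyme markers were higher distally for 5 of 8 genes in the mandible, with 1 lower, and for 8 of 8 in the maxilla. The part of these differences in the Wnt gene results was not tested. The labels call the pieces bone, yet Ibsp, a bone matrix gene, was at or under 4.78 at E10.5 and E11.5 in every group but the distal maxilla at E10.5, at 4.89, and also in the maxilla at E12.5. By E13.5 its group means were between 11.06 and 12.89. In the mandible at E11.5, distal replicate 3 and proximal replicate 1 had upper quartiles of gene values of 9.700 and 9.703. Of all 60 arrays these were the highest, but distal mandible replicate 3 at E14.5 was close, at 9.697. The pair was raised against the other arrays of its own groups, at 9.545 and 9.570 distally and 9.598 and 9.619 proximally. Without this pair, 6 of the 12 Wnt gene calls for position in the mandible at E11.5 were lost (Fzd2, Fzd9, Wnt2, Wnt9b, Wnt11 and Znrf3) and 2 were gained (Fzd6 and Nkd1), 3 of 20 for the jaws at E11.5 were lost, and 2 of 22 for the mandible from E10.5 to E11.5.

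Wnt proteins are secreted, lipid-modified ligands that bind Frizzled receptors. With the co-receptors Lrp5 or Lrp6 they stabilise beta-catenin, which enters the nucleus and, with partners of the Tcf and Lef family, turns on target genes, while with Ror or Ryk receptors they guide cell polarity and movement. Several targets, among them Axin2, Nkd1, Nkd2, Notum, Rnf43 and Znrf3, encode inhibitors that feed back on the pathway, and Wnt signals from the facial epithelium and mesenchyme are known to be needed for jaw outgrowth and for fusion of the lip and palate.

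Promoter sequences were matched by symbol to RefSeq windows of the build GRCm38.p6, which run from 250 bases before to 50 bases after an annotated transcription start. A window was found for 29 of the 41 genes, 36 windows in all. They were searched on both strands for CTTTGAT and CTTTGAA, the core of the site to which Tcf and Lef proteins bind. Of all 32851 windows in the table, 8.65% held a match, and of the 27025 genes 9.88% had a window with a match. Among the Wnt genes, 2 of 15 ligands, 0 of 9 receptors and 0 of 5 targets had a match in these windows. The 250 bases before the start are shown for Axin2 and Lef1, the target genes with the largest difference between the jaws in their distal to proximal contrast, and for Wnt11 and Wnt5b, the ligands with a match. Capitals mark the match, on the strand of the gene, and the absence of capitals says only that these letters are not in this window. The Axin2 stretch is chr11:108920099-108920348 on the plus strand, and that of Lef1, the most upstream of 4 annotated starts, is chr3:131110047-131110296 on the plus strand. The Wnt11 stretch is chr7:98834862-98835111 on the plus strand, with ATCAAAG from position -51, the reverse complement of the first motif. The Wnt5b stretch is chr6:119449387-119449636 on the minus strand, with CTTTGAT from position -71. Positions count back from the start site.
Axin2: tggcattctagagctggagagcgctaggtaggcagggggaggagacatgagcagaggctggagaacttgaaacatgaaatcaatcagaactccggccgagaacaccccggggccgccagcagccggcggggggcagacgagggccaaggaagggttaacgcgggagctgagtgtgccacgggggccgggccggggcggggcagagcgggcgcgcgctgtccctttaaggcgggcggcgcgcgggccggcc
Lef1: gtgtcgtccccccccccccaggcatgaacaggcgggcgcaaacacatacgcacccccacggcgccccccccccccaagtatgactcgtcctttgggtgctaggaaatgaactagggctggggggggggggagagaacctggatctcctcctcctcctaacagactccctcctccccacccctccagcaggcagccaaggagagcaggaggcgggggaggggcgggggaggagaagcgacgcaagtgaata
Wnt11: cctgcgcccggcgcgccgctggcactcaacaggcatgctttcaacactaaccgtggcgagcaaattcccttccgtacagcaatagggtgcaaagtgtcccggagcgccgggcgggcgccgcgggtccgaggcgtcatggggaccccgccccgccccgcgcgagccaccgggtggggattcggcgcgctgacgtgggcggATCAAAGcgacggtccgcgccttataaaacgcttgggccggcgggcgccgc
Wnt5b: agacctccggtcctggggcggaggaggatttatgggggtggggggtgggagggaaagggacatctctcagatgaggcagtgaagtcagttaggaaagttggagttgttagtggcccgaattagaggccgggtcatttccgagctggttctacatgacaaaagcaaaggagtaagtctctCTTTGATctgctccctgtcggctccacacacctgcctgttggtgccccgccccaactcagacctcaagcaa

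Most of the Wnt genes had a signal somewhere in the jaws. Group means reached a log2 level of 6 in at least 1 group for 15 ligands, 14 receptors and all 7 targets. Wnt8a was at or under 4.78 in all 20 groups, Wnt1 and Wnt8b in 19, Wnt3 in 11 and Rnf43 in 1, and the other 36 genes in none. Since probe sets differ in how strongly they bind, the levels below are compared only within a gene. The widest spread of group means belonged to Wnt2 among the ligands, from 5.05 in the proximal maxilla at E10.5 to 8.68 in the distal maxilla at E14.5. Among receptors it was Fzd5, from 6.14 to 8.67, both in the distal maxilla, and among targets Lef1, from 9.07 to 12.22. At the other end, group means of Wnt8a, Wnt8b, Wnt7a and Wnt1 spanned no more than 0.53, and those of Fzd7 and Lrp6 spanned 0.64 and 0.73. The ranges of the remaining genes lay between that of Wnt8a, 0.475, and that of Wnt2, 3.63.

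The first question was how the distal tip and the proximal part of each jaw differ, averaged over the 5 ages. Wnt genes were higher distally more often than lower. In the mandible 25 of 41 were higher and 7 lower, or 78.0% called against 36.3% of all genes, 18.3% higher and 17.9% lower. In the maxilla 28 were higher and 5 lower, or 80.5% called against 50.6% of all genes, 31.6% higher and 19.0% lower. The median log2 difference over the 41 genes came to 0.158 for the mandible and 0.315 for the maxilla, beside 0.010 and 0.038 over all genes. Of the members, 22 were higher distally in both jaws and Fzd4, Fzd8 and Fzd9 were lower in both. Wnt1, Wnt2b, Wnt7a, Wnt8a, Wnt8b, Wnt9a and Fzd1 were called in neither. Counts over both jaws were not made for all genes, so these cannot be read as more or less than usual.

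**Figure D1:**
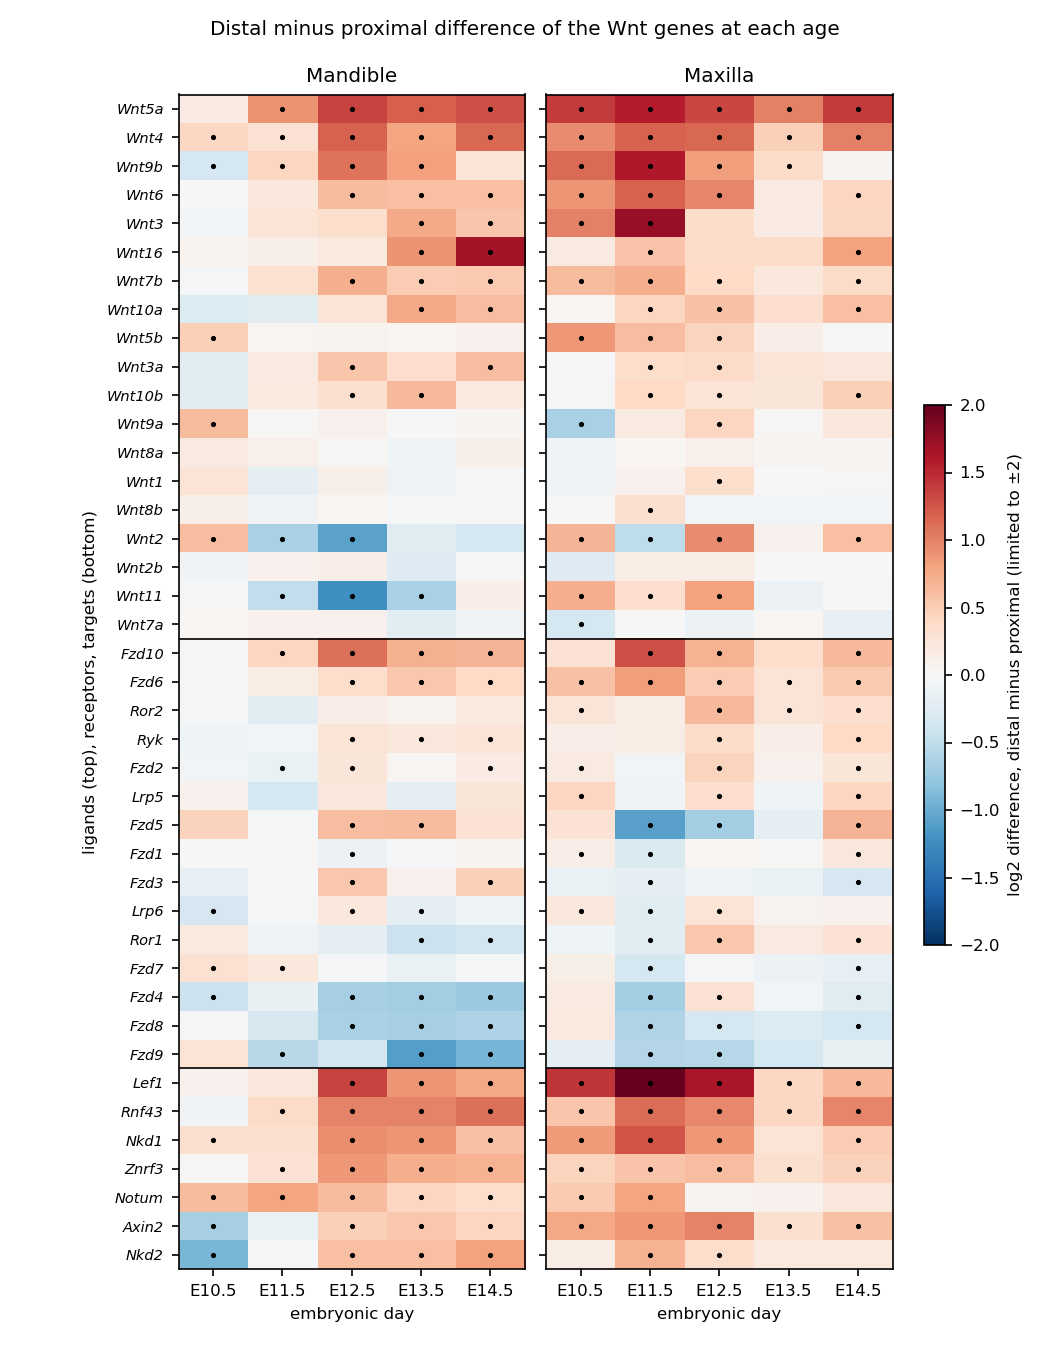
Distal minus proximal log2 difference of each of the 41 Wnt genes (rows, in the order ligands, receptors, targets) at each embryonic day (columns) in the mandible (left) and the maxilla (right). Red is higher distally, blue is lower, the scale is limited to 2 in either direction, and a dot marks an adjusted p under 0.05 in limma; Wnt5a, Wnt4 and the 7 targets are mostly red, and Fzd4, Fzd8 and Fzd9 are mostly blue.

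Among ligands, 11 of 19 were higher and 2 lower in the distal mandible, and 13 were higher and 0 lower in the distal maxilla. Wnt5a, a ligand of the polarity branch that drives outgrowth of the limb and face, had the largest difference in either jaw. Its log2 level in the 15 distal mandible arrays had a lowest value of 10.56, a median of 12.53 and a highest of 12.86, and in the 15 proximal arrays 10.39, 11.20 and 11.76. In the maxilla the distal arrays had 10.79, 11.51 and 12.09 and the proximal arrays 9.19, 10.30 and 10.55. At each of the 5 ages, in each jaw, all 3 distal arrays were above all 3 proximal arrays. The log2 difference was 0.98 ± 0.07 in the mandible (SE, 15 against 15 arrays, 1.97-fold, limma adjusted p = 2.21e-17), against 1.34 ± 0.07 in the maxilla (2.54-fold, adjusted p = 3.54e-23).

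Wnt4, another ligand of the same family with roles in gland and skeletal development, followed the same order. At E14.5 its log2 levels were 10.25, 10.14 and 10.11 in the distal mandible and 9.14, 8.92 and 8.997 in the proximal mandible, with no overlap. In the maxilla at that age they were 9.23, 9.16 and 9.21 distally and 8.40, 8.18 and 7.98 proximally, again apart. Averaged over ages the log2 difference came to 0.76 ± 0.04 for the mandible and 0.95 ± 0.04 for the maxilla (limma adjusted p = 3.05e-20 and 9.44e-25), and Wnt4 was called higher distally at every age in each jaw. The mandible call at E11.5, at 0.29, was lost in 5 of 11 alternative analyses, at 0.098 and limma adjusted p = 0.707 without replicate 2.

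Wnt16, a ligand known for its role in bone, was highest late, in the distal mandible. At E14.5 its log2 levels were 8.36, 8.18 and 8.01 in the distal mandible, 6.56, 6.38 and 6.63 in the proximal mandible, 6.46, 6.36 and 6.06 in the distal maxilla and 5.58, 5.41 and 5.50 in the proximal maxilla. The distal mandible arrays were all above the other 9. At E10.5 to E12.5 the distal and proximal mandible were not called different, and the log2 difference was then 0.90 at E13.5 and 1.66 at E14.5 (limma adjusted p = 4.15e-05 and 5.37e-11). In the maxilla it was called at E11.5, at 0.57, and at E14.5, at 0.80.

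Wnt9b, an epithelial ligand required for fusion of the lip, was higher distally by 0.45 ± 0.06 in the mandible and 0.80 ± 0.06 in the maxilla on the log2 scale. Its levels at E11.5 were 8.11, 8.001 and 7.88 in the distal and 6.35, 6.44 and 6.39 in the proximal maxilla, well apart. By E14.5 the same groups overlapped, at 5.74, 5.597 and 5.82 against 5.53, 5.82 and 5.63. The other ligands higher distally in both jaws were Wnt3, Wnt3a, Wnt5b, Wnt6, Wnt7b, Wnt10a and Wnt10b, with log2 differences from 0.14 for Wnt5b to 0.41 for Wnt6 in the mandible and from 0.24 for Wnt3a to 0.74 for Wnt3 in the maxilla. For Wnt3, 11 groups were not shown to be present, distal ones among them, so its averaged differences include groups that carry no shown signal, and the probe sets of Wnt3 and Wnt5b are of a type that can share sequence with other transcripts.

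Wnt2 and Wnt11 were lower distally in the mandible and higher distally in the maxilla. Wnt11, a polarity ligand, had log2 levels at E12.5 of 8.09, 7.93 and 8.08 in the distal and 9.31, 9.16 and 9.31 in the proximal mandible, against 9.12, 9.19 and 9.24 in the distal and 8.47, 8.35 and 8.31 in the proximal maxilla. The order of the pieces was reversed between the jaws with no overlap in either. Averaged over ages, its log2 difference came to -0.46 ± 0.06 for the mandible and 0.36 ± 0.06 for the maxilla (limma adjusted p = 1.04e-08 and 1.30e-06). Wnt2, a ligand of the beta-catenin branch, had levels at E12.5 of 7.05, 7.11 and 7.04 in the distal and 8.18, 8.11 and 8.10 in the proximal mandible, and of 7.59, 7.62 and 7.73 in the distal and 6.69, 6.78 and 6.65 in the proximal maxilla, the same reversal. Its averaged log2 differences were -0.34 ± 0.06 and 0.36 ± 0.06 (adjusted p = 7.51e-06 and 1.12e-06). The sign of Wnt2 was not constant over ages: it was higher distally in the mandible at E10.5, by 0.61, and lower distally in the maxilla at E11.5, by a log2 difference of -0.50. Both genes differed distally in the mandible at E11.5, at -0.65 for Wnt2 and -0.50 for Wnt11, and without the pair of arrays with raised values these were -0.41 and -0.02 and no longer called (adjusted p = 0.0911 and 0.952).

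**Figure D2:**
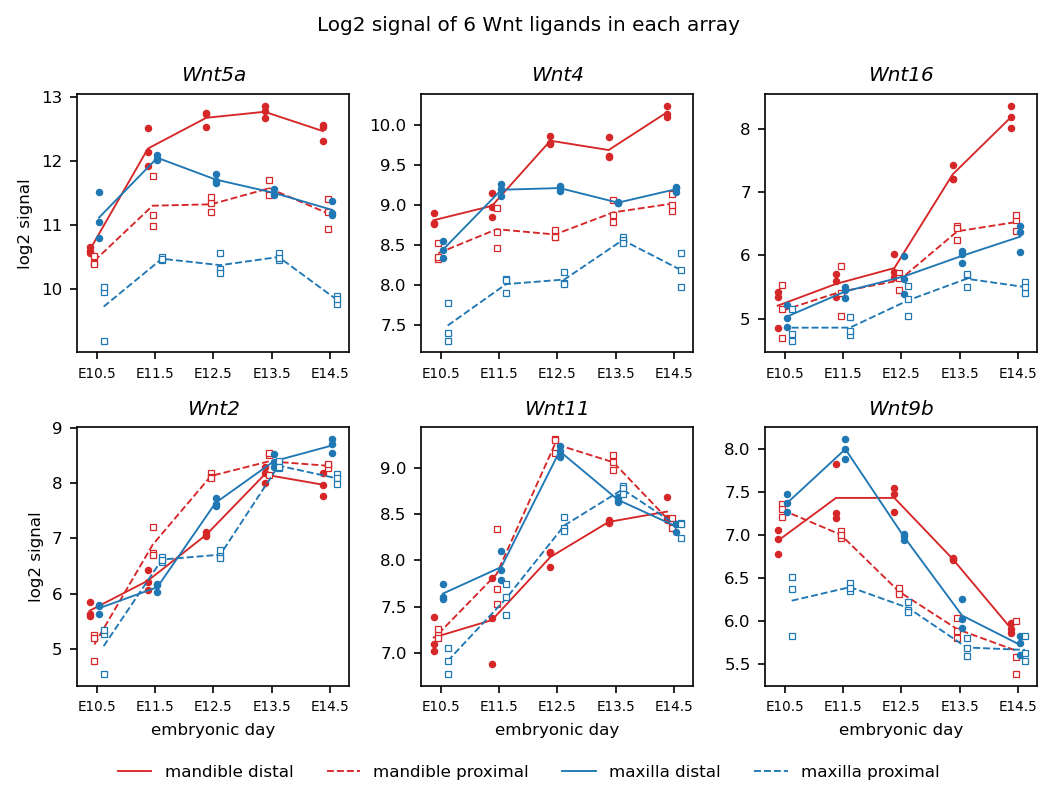
Log2 signal of 6 Wnt ligands in every array against embryonic day, with filled circles for distal and open squares for proximal pieces, red for mandible and blue for maxilla; lines join the means of 3 arrays, and neighbouring ages can lie in different batches. Wnt5a and Wnt4 are higher in distal pieces throughout, Wnt16 reaches 8.18 only in the distal mandible at E14.5, and Wnt2 and Wnt11 change order between the jaws at E12.5.

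Receptors were split. In the mandible 7 of 15 were higher and 5 lower distally, with a median log2 difference of 0.03, and in the maxilla 8 were higher and 5 lower, with a median of 0.08. Fzd10, Fzd6 and Ryk were higher distally in both jaws. Fzd10, a Frizzled that couples to beta-catenin, had levels at E12.5 of 9.29, 9.23 and 9.14 in the distal and 8.15, 8.19 and 8.03 in the proximal mandible, far apart, and its averaged log2 difference came to 0.58 ± 0.06 for the mandible and 0.65 ± 0.06 for the maxilla (limma adjusted p = 2.30e-12 and 1.90e-14). Fzd6, a Frizzled of the polarity branch, differed by 0.29 ± 0.04 and 0.545 ± 0.04 on the log2 scale and was called at every age in the maxilla, although at E13.5, where it was 0.27, the call was lost without any 1 of the 3 replicates. Its levels at E11.5 were 9.21, 9.27 and 9.27 in the distal and 8.52, 8.33 and 8.39 in the proximal maxilla, without overlap. Ryk, a receptor with a kinase-like domain, differed by 0.12 and 0.24.

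Fzd4, Fzd8 and Fzd9 formed the opposite group. Fzd9 had log2 levels at E13.5 of 7.02, 6.94 and 7.17 in the distal and 8.28, 7.77 and 8.40 in the proximal mandible, without overlap, and averaged -0.54 ± 0.07 in the mandible against -0.37 ± 0.07 in the maxilla (limma adjusted p = 3.46e-08 and 3.06e-05). At E11.5 in the mandible its log2 difference was -0.56 with all arrays and 0.05 without the raised pair. Fzd4, which also binds the non-Wnt ligand norrin in blood vessels, had levels at E14.5 of 8.16, 8.05 and 8.22 in the distal and 8.86, 8.85 and 8.93 in the proximal mandible, a clear gap. Its averaged difference was -0.53 ± 0.04 in the mandible but -0.10 ± 0.04 in the maxilla, where centring the arrays on their median, averaging its probe sets, or leaving out replicates 2 or 3 ended the call and its sign changed with age, from -0.69 at E11.5 to 0.29 at E12.5. Fzd8 averaged -0.45 ± 0.05 and -0.28 ± 0.05. Of 6 endothelial markers, 5 were lower in the distal mandible, and in the distal maxilla 1 was lower and 1 higher, with median log2 differences of -0.11 and 0.04; their part in these receptor results was not tested.

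The remaining receptors differed little or changed with the jaw. Fzd3, a polarity receptor, was higher distally by 0.19 in the mandible and lower in the maxilla, at a log2 difference of -0.18. Its probe sets disagreed in the maxilla, with another at 0.14, and their mean was 0.01. Fzd7 differed by 0.06 and -0.11, and neither call held with the mean of its probe sets. Fzd2 was called higher by 0.05 in the mandible with the probe set of highest signal, while its other probe sets gave -0.18 and -0.13 and the mean of all 3 gave -0.09, which turns its direction; in the maxilla all 3 were higher, between 0.15 and 0.18. The co-receptor Lrp6 differed by -0.09 and 0.08, calls that did not hold in several alternative analyses, and Lrp5 was called only in the maxilla, at 0.21. Of the polarity receptors with a tyrosine kinase domain, Ror2 was called only in the maxilla, at 0.33, and Ror1 was lower distally in the mandible, at -0.17, and higher in the maxilla, at 0.14; with the mean of its probe sets the mandible value was -0.05 and not called.

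Averaged over the 5 ages, all 7 targets were called higher in the distal piece of each jaw. Their median log2 differences were 0.57 in the mandible and 0.71 in the maxilla. At E10.5 alone, Axin2 and Nkd2 were called lower distally in the mandible. Lef1, the transcription factor that pairs with beta-catenin, had the largest averaged difference of the 7 in the maxilla and, after Rnf43, the next largest in the mandible. Its log2 levels at E11.5 were 12.21, 12.19 and 12.26 in the distal and 10.11, 10.04 and 10.18 in the proximal maxilla, far apart, and 11.32, 11.43 and 11.00 in the distal and 10.92, 11.11 and 11.02 in the proximal mandible, where the groups overlapped. At E12.5 the mandible groups separated too, at 11.68, 11.66 and 11.58 against 10.31, 10.36 and 10.18. Averaged over ages the log2 difference came to 0.67 ± 0.06 for the mandible and 1.25 ± 0.06 for the maxilla (1.59-fold and 2.37-fold, limma adjusted p = 1.31e-12 and 6.54e-23). In the maxilla it was 1.43, 2.11, 1.64, 0.41 and 0.66 from E10.5 to E14.5, called at each age, and in the mandible it was called from E12.5 on. The maxilla call at E13.5 was lost without any 1 of the 3 replicates, with adjusted p = 0.247 without replicate 2.

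Rnf43 and Znrf3, membrane ubiquitin ligases that remove Frizzled receptors from the cell surface, differed by 0.68 ± 0.06 and 0.52 ± 0.04 in the mandible and by 0.80 ± 0.06 and 0.48 ± 0.04 in the maxilla on the log2 scale. At E14.5 the Rnf43 levels were 7.28, 7.11 and 7.09 in the distal and 6.12, 6.15 and 5.89 in the proximal mandible, and 6.25, 6.24 and 6.25 in the distal and 5.43, 5.29 and 5.10 in the proximal maxilla, so that in each jaw the distal arrays were the higher. Its maxilla value is a lower bound, since 1 proximal group is not shown to have it. Nkd1, which binds Dishevelled and dampens the signal, differed by 0.61 ± 0.05 and 0.75 ± 0.05. Its levels at E12.5 were 10.07, 10.09 and 10.08 in the distal and 9.21, 9.08 and 9.15 in the proximal mandible, and 9.53, 9.56 and 9.46 against 8.72, 8.55 and 8.69 in the maxilla, apart in each jaw. Notum, an enzyme that removes the lipid from Wnt proteins, was called higher distally at every age in the mandible, at 0.57 ± 0.06 on average, and in the maxilla only at E10.5 and E11.5, at 0.34 ± 0.06 on average. Its mandible calls at E13.5 and E14.5 were lost without replicate 2 (0.417 and 0.377, limma adjusted p = 0.138 and 0.180) and without replicate 3.

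Axin2, a scaffold of the complex that degrades beta-catenin and the most used readout of the pathway, and Nkd2, a relative of Nkd1, changed sign with age in the mandible. At E10.5 Axin2 levels were 9.01, 8.99 and 9.03 in the distal and 9.72, 9.68 and 9.64 in the proximal mandible, and Nkd2 levels were 7.76, 7.77 and 7.85 against 8.73, 8.69 and 8.70. Both genes were thus lower distally, with log2 differences of -0.67 and -0.91 (limma adjusted p = 3.16e-09 and 3.37e-11). At E14.5 the order was the opposite: 9.04, 8.99 and 8.95 against 8.66, 8.53 and 8.53 for Axin2, and 8.49, 8.70 and 8.51 against 7.96, 7.55 and 7.76 for Nkd2. Axin2 was called higher distally by 0.47, 0.535 and 0.42 at the last 3 ages, and Nkd2 by 0.605, 0.595 and 0.81. At E10.5 in the same mandible arrays Notum and Nkd1 were higher distally, by 0.63 and 0.32, Wnt9b was lower, at -0.36, and Lef1, Rnf43, Znrf3 and Wnt5a were not called. With the mean of their probe sets Nkd1 was 0.022 and Wnt9b -0.192 there and neither was called (limma adjusted p = 0.912 and 0.157), nor were they without replicates 2 or 3 or with a replicate block. In the maxilla Axin2 was called higher distally at every age, from 0.33 at E13.5 to 0.99 at E12.5, but at E13.5 not without replicate 2 (adjusted p = 0.0972) or with the mean of its probe sets (0.190, adjusted p = 0.150). The averaged Axin2 difference in the mandible, 0.12 ± 0.04, was not called without replicate 2 (adjusted p = 0.0810), and it was -0.40 in the batch with E10.5 and E11.5 and 0.47 and 0.48 in the others.

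**Figure D3:**
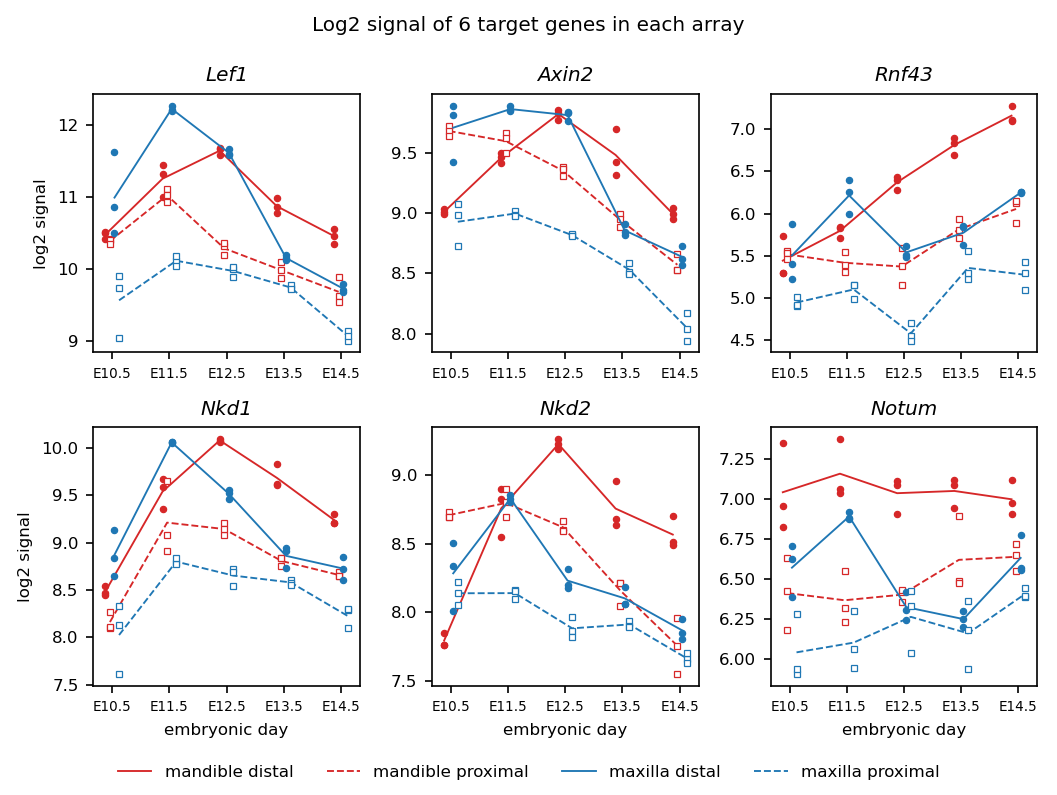
Log2 signal of 6 of the 7 target genes in every array against embryonic day, with filled circles for distal and open squares for proximal pieces, red for mandible and blue for maxilla; lines join the means of 3 arrays, and neighbouring ages can lie in different batches. Distal means lie above proximal ones at most ages, but in the mandible at only 3 of 5 ages for Axin2 and Nkd2 and 4 of 5 for Rnf43. Axin2 and Nkd2 were called lower distally in the mandible at E10.5. Lef1 peaks at 12.22 in the distal maxilla at E11.5.

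The number of Wnt genes that separated distal from proximal varied between ages. In the mandible at E10.5, 7 of 41 were higher distally and 5 lower, against 9.83% and 9.26% of all genes and 19.1% called in either direction. At E11.5 it was 8 and 4, against 3.18% and 5.75% of all genes and 8.93% called in either direction. At E12.5 it was 21 and 5, against 15.4% and 17.3% of all genes and 32.7% called in either direction. At E13.5 it was 20 and 6, against 12.4% and 12.9% of all genes and 25.3% called in either direction. At E14.5 it was 20 and 4, against 15.0% and 11.8% of all genes and 26.8% called in either direction. The calls were fewest at the first pair of ages. In the maxilla at E10.5, 21 of 41 were higher distally and 2 lower, against 12.1% and 8.10% of all genes and 20.2% called in either direction. At E11.5 it was 22 and 10, against 18.9% and 15.8% of all genes and 34.7% called in either direction. At E12.5 it was 28 and 3, against 23.3% and 15.7% of all genes and 39.0% called in either direction. At E13.5 it was 9 and 0, against 5.40% and 10.3% of all genes and 15.7% called in either direction. At E14.5 it was 22 and 4, against 21.3% and 12.3% of all genes and 33.7% called in either direction. Here the calls were fewest at E13.5. Axin2, Fzd6, Lef1, Rnf43, Wnt4, Wnt5a and Znrf3 were called higher distally at each age in the maxilla, and Notum and Wnt4 in the mandible. Only Wnt4 and Wnt5a, both in the maxilla, kept all 5 calls in every alternative analysis of these ages; the E13.5 calls of the other 5 maxilla genes were among those lost. Axin2, Fzd2, Lrp6, Nkd2, Wnt2 and Wnt9b in the mandible, and Fzd1, Fzd4, Fzd5, Lrp6, Ror1, Wnt2 and Wnt9a in the maxilla, were called in opposite directions at different ages. This held in every such alternative for Axin2, Nkd2 and Wnt2 in the mandible and Fzd4 and Wnt2 in the maxilla, while each of the other 8 patterns was lost in at least 1. For Wnt9a, a ligand active in cartilage and joints, the levels at E10.5 were 6.05, 6.39 and 6.80 in the distal and 5.55, 5.82 and 5.99 in the proximal mandible, but 5.94, 6.30 and 6.73 in the distal and 7.09, 6.78 and 7.05 in the proximal maxilla, the order reversed and the maxilla groups apart. The maxilla difference was -0.654 and, with the mean of its 2 probe sets, -0.212 and not called (adjusted p = 0.190). Averaged over the ages of a batch, 23 of 41 genes in each jaw had the same sign in every batch. The same count was not made over all genes, so it cannot be read as more or less than usual. Whether the difference changed with age was not tested gene by gene. With each group mean taken as 1 sample, the spread is the variation of the difference between ages. Limma then called 17 of the 41 genes in the maxilla, beside 3731 of all 18193. In the mandible, beside 548 of all genes, it called 5: Nkd1, Notum, Wnt4, Wnt5a and Znrf3.

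The next question was whether the distal to proximal difference itself differed between the jaws, which was tested as an interaction. It did for 23 of 41 genes, against 39.9% of all genes. The value compared is signed, so Fzd4 and Fzd8, lower distally in both jaws and more so in the mandible, count toward the maxilla. This signed value was higher in the mandible for 4 genes and in the maxilla for 19, against 16.1% and 23.8% of all genes. The largest were Wnt11, at a log2 difference between the jaws of -0.81 ± 0.08, Wnt2 at -0.70 ± 0.09, Axin2 at -0.59 ± 0.05 and Lef1 at -0.58 ± 0.09 on the side of the maxilla (limma adjusted p = 1.90e-11, 1.53e-09, 2.59e-14 and 4.45e-07). On the side of the mandible were Fzd5 at 0.60 ± 0.13, Fzd3 at 0.37 ± 0.04, Notum at 0.23 ± 0.08 and Fzd7 at 0.18 ± 0.03 (adjusted p = 0.000183, 7.63e-10, 0.0191 and 3.52e-05). Fzd5, a Frizzled with a role in eye and gut epithelium, had levels at E11.5 of 6.24, 5.98 and 6.19 in the distal and 7.17, 7.25 and 7.24 in the proximal maxilla, and at E14.5 of 8.70, 8.75 and 8.57 against 8.03, 7.94 and 8.03, so that the order of the pieces turned over with age. In the mandible it was called higher distally at E12.5 and E13.5, but at neither without replicate 2 (0.604 and 0.653, adjusted p = 0.123 and 0.118), and its E14.5 maxilla call was lost without replicates 1 or 2. The Notum value was not called without replicate 2 or without replicate 3, where it was 0.243 and 0.104, and that of Fzd7 was 0.059 and not called with the mean of its probe sets. Members whose interaction was not called include Wnt16, Fzd10, Nkd1, Rnf43 and Znrf3, with values between -0.14 and 0.14. The batches of the jaws differ at 3 of the 5 ages. With each group mean taken as 1 sample limma called 0 of the 41 genes, 5 having an unadjusted p under 0.05. It called 680 of all 18193 genes. In the interaction test with all arrays, the distal minus proximal value was higher in the mandible for 9 of 9 neuron and 4 of 4 glia markers. It was lower there than in the maxilla for 6 of 7 cartilage, 9 of 10 muscle and 8 of 12 epithelial markers. The part of these markers was not tested.

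**Figure D4:**
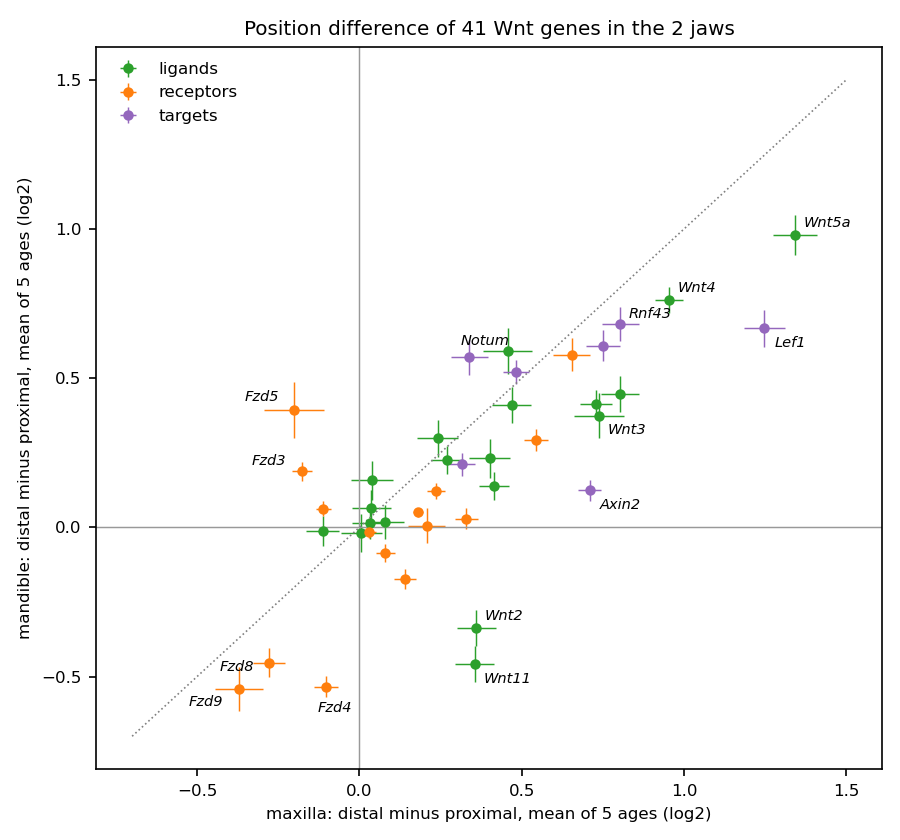
Averaged distal minus proximal log2 difference of the 41 Wnt genes in the mandible (vertical) against that in the maxilla (horizontal), in green for ligands, orange for receptors and purple for targets; bars are standard errors from the limma fit and the dotted line marks equal values. Wnt5a, at 0.98 and 1.34, lies farthest out, Wnt2 and Wnt11 lie on opposite sides of 0, and Lef1 and Axin2 lie well toward the maxilla.

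The jaws themselves were compared at the ages at which they share a batch, averaging distal and proximal pieces. At E11.5, 19 of 41 genes were higher in the mandible and 1, Fzd3, was lower, together 48.8% against 33.5% of all genes, 21.2% higher and 12.3% lower. Receptors made up 10 of the 19: the largest were Fzd4 at a log2 difference of 0.67, Fzd5 at 0.59 and Lrp5 at 0.52 (limma adjusted p = 5.71e-14, 0.00113 and 7.22e-06), beside the ligand Wnt9a at 0.61. At this age 5 of 12 epithelial markers were higher and 5 lower in the mandible, while 10 of 10 muscle markers, 5 of 7 cartilage and 4 of 4 bone markers were higher and 9 of 9 neuron and 4 of 4 glia markers lower, with median log2 differences of 1.95 for muscle and -2.89 for neurons. Without the pair of arrays with raised values 16 genes were higher and 1 lower, the calls of Notum, Wnt16 and Wnt3a being lost. At E12.5, 19 were higher and 4 lower, together 56.1% against 41.3% of all genes, 24.0% higher and 17.3% lower, and now 12 of 12 epithelial markers were higher in the mandible, by a median log2 difference of 0.997. Neuron and glia markers were again lower, 9 of 9 and 4 of 4, and so were 10 of 10 muscle markers, with medians of -2.505, -0.86 and -1.18, while 5 of 7 cartilage markers were higher and 1 lower. Of the bone markers at E12.5, Ibsp, Alpl and Sp7 were higher in the mandible by 5.18, 1.495 and 1.41, and Col1a1 was not called. The Ibsp value is a lower bound, since its maxilla groups were at or under 4.78. The part of these marker differences in the Wnt results at either age was not tested.

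Wnt5a, with levels at E12.5 of 12.73, 12.75 and 12.53 in the distal mandible and 11.79, 11.65 and 11.68 in the distal maxilla, and 11.34, 11.43 and 11.19 against 10.30, 10.25 and 10.55 in the proximal pieces, was the largest of these, at a log2 difference of 0.96 ± 0.11. Mandible arrays were above maxilla arrays in both pieces. Fzd6, Nkd2 and Rnf43 followed at 0.87, 0.86 and 0.81, and Ror1, Fzd7, Fzd1 and Fzd3 were lower in the mandible, at -0.52, -0.25, -0.23 and -0.14. Fzd1 and Fzd7 were higher in the mandible at E11.5, by 0.40 and 0.25, and lower at E12.5. The Fzd3 call at E12.5 was lost without replicates 1 or 2 and with the mean of its probe sets, at -0.09 (limma adjusted p = 0.0570).

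Change with age was read for the steps within a batch, again averaging the pieces. From E10.5 to E11.5 in the mandible 20 of 41 genes rose and 2 fell, against 44.3% of all genes called, 27.7% up and 16.5% down. Wnt9a, Wnt5a, Wnt2 and Nkd1 rose most, by log2 differences of 1.37 ± 0.10, 1.23 ± 0.11, 1.18 ± 0.10 and 1.05 ± 0.08 (limma adjusted p = 9.59e-16, 6.47e-14, 6.03e-15 and 3.67e-15), and Znrf3 and Lrp6 fell, at -0.26 and -0.12. Wnt5a levels were 10.59, 10.56 and 10.66 in the distal mandible at E10.5 and 12.14, 12.51 and 11.92 at E11.5, with a wide gap. The count depends on the scaling: with arrays centred on their median, which moves the median of all genes by a log2 value of -0.14, 12 genes rose and 10 fell, and with a repeated quantile normalization 16 rose and 4 fell. Axin2, Fzd2, Fzd5, Fzd6, Wnt3, Wnt3a, Wnt4 and Wnt16 lost their call on centring, and the 4 largest rises did not.

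At the later steps falls outnumbered rises. From E13.5 to E14.5 in the mandible 4 genes rose and 13 fell, against 13.3% and 17.2% of all genes and 30.6% in either direction. From E12.5 to E13.5 in the maxilla 10 rose and 16 fell, against 24.5% and 19.6% and 44.1% in either direction; with arrays centred on their median, a shift of -0.16, 8 rose and 24 fell. From E13.5 to E14.5 in the maxilla 2 rose and 8 fell, against 10.3% and 12.9% and 23.1% in either direction. The targets Axin2, Lef1 and Nkd1 fell at each of these 3 steps. From E13.5 to E14.5 the Nkd1 calls did not hold with the mean of its probe sets, at -0.130 for the mandible and -0.087 for the maxilla (limma adjusted p = 0.0708 and 0.301), nor without replicate 3 or, for the maxilla, replicate 2, and that of Lef1 in the mandible was lost without replicate 2 (adjusted p = 0.0760). Lef1 levels in the distal maxilla were 11.59, 11.66 and 11.58 at E12.5, 10.14, 10.12 and 10.19 at E13.5 and 9.71, 9.79 and 9.67 at E14.5, each age below the last without overlap, and over both pieces the log2 differences of the maxilla steps were -0.84 ± 0.10 and -0.55 ± 0.10 (limma adjusted p = 9.19e-10 and 3.74e-05). Axin2 changed by -0.62, -0.35 and, in the mandible, -0.43. Rnf43, by contrast, rose from E12.5 to E13.5 in the maxilla, by 0.50, and from E13.5 to E14.5 in the mandible, by 0.29.

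Among ligands, Wnt9b fell by 0.69 from E12.5 to E13.5 in the maxilla and by 0.53 from E13.5 to E14.5 in the mandible, and Wnt5a fell by 0.35 and 0.47 from E13.5 to E14.5 in the mandible and maxilla, the former not called without replicate 2 (-0.249, limma adjusted p = 0.205) or replicate 3. Wnt2 rose by 1.18 ± 0.10 and Wnt9a by 0.72 ± 0.10 from E12.5 to E13.5 in the maxilla, and Wnt16 rose by 0.53 ± 0.12 from E13.5 to E14.5 in the mandible. Fzd5 rose at all 4 steps, by 0.47, 0.39, 1.39 and 0.42, although none of these calls but the third held in every alternative: the first was lost on centring, with the mean of its probe sets, without replicate 1 and without the pair of arrays with raised values (limma adjusted p = 0.0520), and the second and the fourth without replicates 1 or 2, the fourth also with the mean of its probe sets (0.236, adjusted p = 0.113). Fzd6 and Fzd9 rose by 0.86 and 0.85 from E12.5 to E13.5 in the maxilla. Epithelial markers rose for 12 of 12 genes at that step and for 10 of 12, with 1 falling, from E13.5 to E14.5 in the mandible. Muscle markers rose for 10 of 10 genes from E10.5 to E11.5 and for 8 of 10 at each of the steps just named, where cartilage markers rose for 6 of 7 and 5 of 7; the part of these lists in the Wnt results was not tested.

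**Figure D5:**
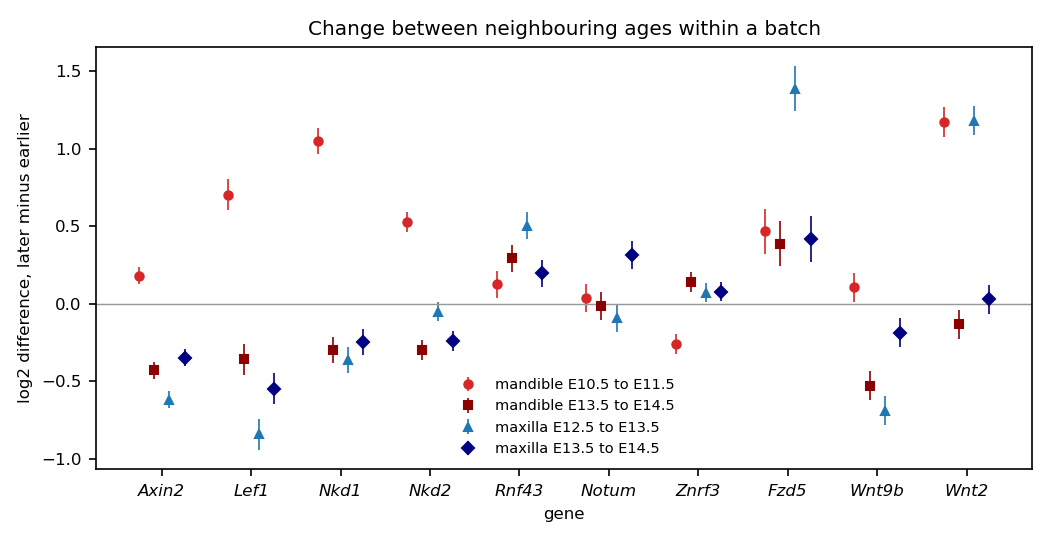
Log2 change of 10 Wnt genes between neighbouring ages within a batch, averaged over distal and proximal pieces, with standard errors from the limma fit; symbols give the jaw and the step. Axin2, Lef1 and Nkd1 lie above 0 at the early mandible step and below 0 at the 3 later steps, and Fzd5 lies above 0 at all 4.

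Other genes of the pathway, in lists drawn up by function, also differed between the pieces. Of 17 secreted inhibitors 16 were measured, and 8 were higher and 3 lower distally in each jaw, beside 18.3% of all genes higher and 17.9% lower for the mandible and 31.6% and 19.0% for the maxilla, with median log2 differences of 0.19 in the mandible and 0.27 in the maxilla. The Lrp5 and Lrp6 antagonist Dkk1 was higher distally by 1.498 ± 0.11 for the mandible and 1.72 ± 0.11 for the maxilla (limma adjusted p = 2.06e-16 and 4.28e-19). Sostdc1, an antagonist of Wnt and BMP signals in the epithelium, differed by 1.01 and 1.02, and Wif1, which binds Wnt proteins, by 1.06 and 1.02. Sfrp4 was higher distally in the mandible by 2.02, while the related Frizzled-like inhibitors Sfrp1 and Sfrp2 were lower there, at -0.97 and -1.05. In the maxilla Dkk4 was higher by 1.65, a lower bound because 1 proximal group is not shown to have it, and Draxin, which also guides axons, was lower, at -1.57.

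R-spondins strengthen Wnt signals by clearing Rnf43 and Znrf3 from the membrane. They and their Lgr receptors were higher distally for 5 of 7 genes in the mandible and 4 of 7 in the maxilla, with 0 lower. Of all genes, 18.3% and 31.6% were higher and 17.9% and 19.0% lower in the same jaws. Lgr6 differed by 1.30 and 0.91 and Rspo2 by 0.32 and 0.74. From E10.5 to E11.5 in the mandible 6 of these 7 rose, against 27.7% of all genes. Among them Rspo1 and Rspo3 rose by 2.03 each and Lgr5 by 1.74, and Wif1 of the inhibitors rose by 2.94. Of the 2 genes for ligand processing, Wls, which carries Wnt proteins to the surface, was higher distally by 0.13 and 0.44, and Porcn, which attaches their lipid, was called only in the maxilla, at -0.19. Of 21 intracellular components, 10 were higher and 2 lower distally in the mandible, and 8 were higher and 6 lower in the maxilla, with median log2 differences of 0.05 and 0.02, or 57.1% and 66.7% called against 36.3% and 50.6% of all genes. Ctnnb1, the gene for beta-catenin, differed by 0.04 ± 0.01 in the mandible and was not called in the maxilla, while Tcf7l1, a Tcf factor that mostly represses, differed by 0.21 and 0.23. Of 11 planar polarity genes, 5 were higher and 2 lower in the mandible, beside 18.3% and 17.9% of all genes. In the maxilla 6 were higher and 3 lower, beside 31.6% and 19.0% of all genes. The largest difference among them was that of Celsr3, a cadherin of axon tracts, at -0.25 and -1.52, beside the lower neuron markers of the distal maxilla; their part in it was not tested.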

How the data were processed

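Per the submitters' processing notes the deposited values come from RMA and are on a log2 scale; RMA subtracts background, equalizes arrays and combines the probes of a set. The RMA version, the build and whether the 60 arrays were processed as 1 set are not given in the sources used here. Values ran from 2.54 to 14.81 and were used as deposited. The table's value columns all belong to samples used here, and no array pair shared more than 0.500% of its gene values. Of 45101 probe sets, 64 are controls, 34945 carry 1 symbol in the platform annotation, 932 several and 9160 none; probe sets with several or none were left out, and 34741 matched the RefSeq gene table with 0 symbols changed. A gene was represented by its probe set of highest mean over all arrays; 14 of the 41 Wnt genes have only 1.

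All arrays entered a single limma fit (version 3.58.1, R 4.3.3) with 20 group means, 40 residual degrees of freedom and eBayes with a trend. Contrasts were tested on both sides and adjusted by Benjamini-Hochberg over 18193 genes in each of 19 comparisons. The SE is that of the fit. The procedure was tested on simulated data. Genes named are those with the largest called differences, up to 6 in each direction for averaged position and up to 4 otherwise, those of widest range per role, and further members chosen after their values were seen. The members and lists were chosen with earlier results of these data known. Alternatives were a repeated quantile normalization, centring on the array median, a filter on dim genes, averaging the probe sets of each gene, only the arrays compared, eBayes without trend, a replicate block, leaving out each replicate number or the pair of mandible E11.5 arrays with raised values, and group means as single samples. The number of arrays limits the precision.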

Additional observations from a re-analysis of the deposited data

Results flagged for a closer look

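The test of the difference between the jaws picked out 23 of the 41 Wnt genes, whose distal to proximal contrast was not the same in the mandible and the maxilla (limma interaction, adjusted p under 0.05). On the log2 scale, mandible minus maxilla, the values furthest toward the maxilla were -0.812 for Wnt11, -0.697 for Wnt2, -0.585 for Axin2 and -0.580 for Lef1. Averaged over the 5 ages, Wnt11 and Wnt2 were lower distally in the mandible and higher distally in the maxilla. Wnt2 was called in opposite directions at different ages in each jaw. Axin2 and Lef1 were on average higher distally in each jaw. In the mandible Axin2 averaged 0.124, was called lower distally at E10.5, at -0.671, and lost its averaged call without replicate 2. Those furthest toward the mandible were 0.595 for Fzd5, 0.366 for Fzd3, 0.231 for Notum and 0.175 for Fzd7. On average Fzd3 and Fzd7 were higher distally in the mandible and lower in the maxilla. With the mean of its probe sets the Fzd3 maxilla value was 0.011 and not called. Neither position call of Fzd7 held with the mean of its probe sets. Of the interaction values, that of Fzd7 was not called with the mean of its probe sets. That of Notum was not called without replicate 2 or without replicate 3. Jaw and batch cannot be told apart at the first and the last 2 ages.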

How the results depend on the processing

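With each group mean taken as a single sample, 5 members were called for position in the mandible, 17 in the maxilla and 0 for the difference between the jaws. Of all 18193 genes, 548, 3731 and 680 were called in the same order. No other alternative moved a count of called members by more than 1.5 times. Leaving out replicates 1, 2 and 3 in turn gave 27 to 32 members for mandible position, 31 to 33 for maxilla position, 18 to 20 for the difference between the jaws, 18 to 18 for the jaws at E11.5, 21 to 23 at E12.5, 16 to 20 from E10.5 to E11.5 and 13 to 14 from E13.5 to E14.5 in the mandible, 18 to 21 from E12.5 to E13.5 and 7 to 9 from E13.5 to E14.5 in the maxilla, and 82 to 91 and 95 to 101 calls over the single ages of mandible and maxilla. With a replicate block the counts in the same order were 33, 34, 21, 20, 23, 22, 17, 26, 10, 102 and 119. No label says that a replicate number marks a shared litter or animal, and of 30 pairs of same-numbered distal and proximal arrays 10 had a correlation of their deviations above 0.1, with a range from -0.36 to 0.44; the 3 pairs of maxilla at E10.5, at 0.340, 0.170 and 0.265, were the only group in which all 3 were. Changes of sign with no call either with the full set of arrays or in the alternative were not counted. On this count, 15 of 779 log2 differences (41 genes in 19 comparisons) turned their sign in an alternative. With the mean of probe sets these were Fzd2 in the mandible at -0.088 on average, -0.151 at E13.5, -0.081 at E14.5 and -0.046 from E10.5 to E11.5, Fzd3 in the maxilla at 0.011 on average and 0.078 at E11.5, Ror1 in the maxilla at E11.5 at 0.031, Wnt8b in the maxilla at E10.5 at 0.42, and Wnt7a at 0.13 for mandible position, 0.19 and 0.22 between the jaws at E11.5 and E12.5 and -0.215 from E13.5 to E14.5 in the maxilla. On centring they were Fzd8 at -0.15 from E10.5 to E11.5 in the mandible and Lrp6 at -0.005 from E12.5 to E13.5 in the maxilla. Without the pair of raised arrays it was Fzd9 at 0.047 in the mandible at E11.5. The causes were not tested.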
